A study of Mus musculus with 12 samples.

Results

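The oxidative stress and metallothionein genes examined here were 10 genes: Hmox1, Nqo1, Gclc, Gclm, Txnrd1, Srxn1, Prdx1, Slc7a11, Mt1 and Mt2. They were taken by symbol as established targets of the stress factor NRF2 and as the common metallothioneins. No rule on their values was used, but earlier results of these data were known when they were chosen. All 10 were found among the 32288 rows of the count tables and among the 18804 genes tested. Their counts were compared in tumors of the light and the dark groups, with the question whether blue light goes with expression of oxidative stress genes. The tumors came from P815, a mouse mastocytoma line (a mast cell tumor), injected under the skin of adult DBA/2 mice. P815-IFNG is 1 clone that carries the blue-light activator GAVPO, a light-driven cassette of Ifng, Cxcl10 and a secreted luciferase, and the reporter mRuby3_luciferase, whereas P815-M, also 1 clone, carries that reporter and no light-driven cassette. In the light groups the mice received 12 h of blue light per day for 6 days, and in the dark groups 0 h. Each of the 4 groups (P815-IFNG light, P815-IFNG dark, P815-M light and P815-M dark) had 3 mice with 1 tumor and 1 library each.

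As background, NRF2 is held in the cytoplasm by KEAP1 and broken down there, and oxidants or electrophiles free it to bind antioxidant response elements. Its targets break down heme (Hmox1), reduce quinones (Nqo1), make glutathione (Gclc and Gclm), import cystine for it (Slc7a11) and run the thioredoxin and peroxiredoxin cycle (Txnrd1, Prdx1, Srxn1). Metallothioneins are small cysteine-rich proteins that bind zinc and copper, and their genes are switched on by MTF1 at metal response elements, with glucocorticoids and oxidants as further inducers.

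Promoter windows were available from RefSeq (GRCm38.p6) for 8 of the 10 members, as the 250 bases before each start site. They are shown for the 5 members whose P815-M light and dark libraries did not overlap. Their letters show which of the 2 elements lies in the window before each annotated start. Capitals mark the metal response element core (TGCACNC or TGCGCNC, either strand) in Mt1, Mt2 and Srxn1, and the antioxidant response element core (TGACNNNGC, either strand) in Prdx1 and Txnrd1. The windows, all on the plus strand, were chr8:94178839-94179081 for Mt1, chr8:94172368-94172617 for Mt2, chr4:116685349-116685543 for Prdx1, chr2:152105274-152105515 for Srxn1 and chr10:82858956-82859178 for Txnrd1, the last being the single one of 3 Txnrd1 windows that held a core. The parts that lie in an exon of the GENCODE annotation were left out of the letters shown, but all 250 bases were searched.
Mt1: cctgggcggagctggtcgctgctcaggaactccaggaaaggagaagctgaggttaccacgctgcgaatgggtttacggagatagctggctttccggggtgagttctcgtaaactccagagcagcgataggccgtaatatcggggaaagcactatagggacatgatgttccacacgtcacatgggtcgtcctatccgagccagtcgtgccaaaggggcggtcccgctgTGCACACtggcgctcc
Mt2: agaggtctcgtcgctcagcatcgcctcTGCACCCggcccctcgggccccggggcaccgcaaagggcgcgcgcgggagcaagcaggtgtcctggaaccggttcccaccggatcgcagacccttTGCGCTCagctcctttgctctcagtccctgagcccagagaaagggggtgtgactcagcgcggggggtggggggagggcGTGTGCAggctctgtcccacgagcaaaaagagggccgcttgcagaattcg
Prdx1: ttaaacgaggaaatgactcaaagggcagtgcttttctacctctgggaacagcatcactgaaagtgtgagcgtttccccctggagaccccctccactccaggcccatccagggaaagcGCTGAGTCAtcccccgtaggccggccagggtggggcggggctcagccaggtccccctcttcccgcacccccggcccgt
Srxn1: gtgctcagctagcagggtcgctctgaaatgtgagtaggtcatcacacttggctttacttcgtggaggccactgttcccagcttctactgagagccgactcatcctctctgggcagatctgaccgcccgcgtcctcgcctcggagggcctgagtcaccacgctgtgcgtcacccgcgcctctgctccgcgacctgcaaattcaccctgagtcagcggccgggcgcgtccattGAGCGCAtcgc
Txnrd1: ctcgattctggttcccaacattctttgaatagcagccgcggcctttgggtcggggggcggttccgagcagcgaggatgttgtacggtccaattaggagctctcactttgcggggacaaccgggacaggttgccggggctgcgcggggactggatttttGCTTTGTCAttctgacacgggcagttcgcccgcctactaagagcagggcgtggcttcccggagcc

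The Mt1 window held 1 metal response element core, 23 bases before the RefSeq start. The Mt2 window held 3 of them plus 1 antioxidant response element core that is not capitalized here. Bases after the RefSeq start were not searched, so these are counts in the windows and not in whole promoters. Prdx1 and Txnrd1 each held 1 antioxidant response element core. Srxn1, which stood with Prdx1 and Txnrd1 among the members higher in light, held no antioxidant and 1 metal response element core. Of the members not shown, Gclm held 1 antioxidant response element core overlapping with 1 of its 2 metal response element cores, and Nqo1 and Slc7a11 held neither. Of all 32851 windows of this length, 10.2% held the antioxidant and 21.4% the metal response element core, so a match is a description of these letters.

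Depth differed between the libraries, and the members are therefore given with the deep libraries apart. Both P815-IFNG groups had 1 deep library, the third in each, with 41473500 counts (light) and 42338096 counts (dark), against 2211234 to 2946792 in the other 10, where 3 counts were 0.931 to 1.56 CPM (counts-per-million). All CPM below were scaled with TMM factors after removal of the 13 mitochondrial genes. The mitochondrial gene mt-Nd6, which lies opposite to the other mitochondrial protein-coding genes, took 3.56% and 3.85% of all mitochondrial protein-coding counts in the deep libraries and 29.0% to 47.9% in the other 10. The labels name a kit that marks the strand, counting was done with default parameters, and the strand setting of each library is not given in the sources used here. In 247 pairs of a protein-coding gene and a gene of another type on the opposite strand that shared at least 0.5 of its exon bases (summed mean of at least 10 CPM), the row of the opposite gene held more counts than the coding gene in 78.1% to 83.4% of pairs in the lower-depth libraries and in 5.67% and 4.86% in the deep ones. Where the 2 strands are annotated, the 10 lower-depth libraries thus held mostly counts on the strand opposite to the coding gene and the deep ones did not, so both classes differ in strand as well as in depth. A member's value in the 10 libraries may therefore rest on a minor part of its transcript reads or on reads of the other strand, and a fold between the classes is not a fold of expression. Of the mast cell markers, Kit (317 to 666 CPM) and Cpa3 (675 to 7570 CPM) were found in all 12 libraries, while Fcer1a and Ms4a2, parts of the IgE receptor, were at 0 in most of them.

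**Figure D1:**
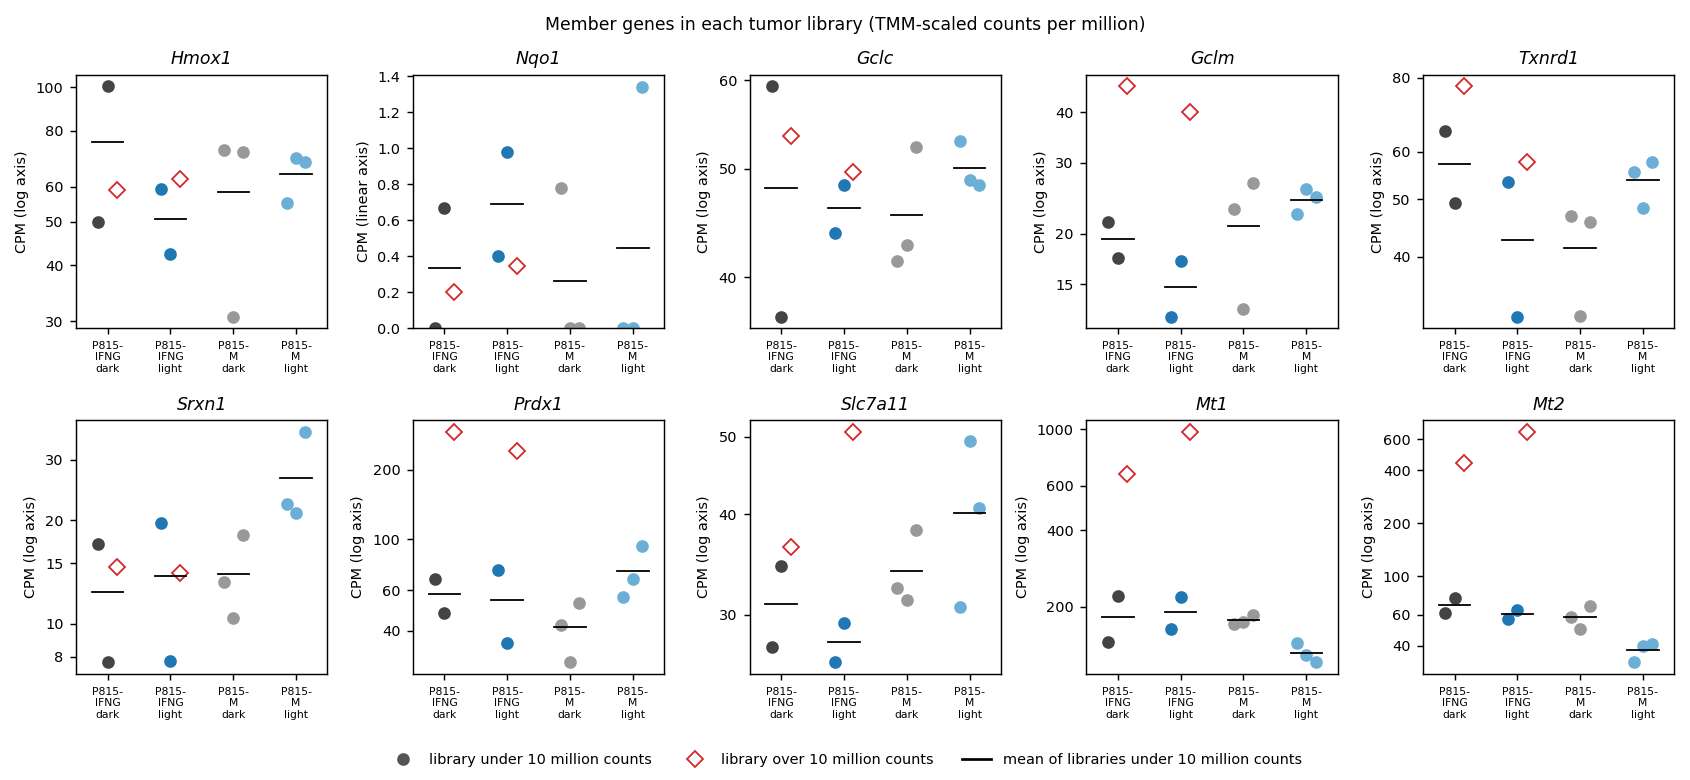
Level of each of the 10 members in the 12 libraries, in TMM-scaled CPM on a log axis (linear for Nqo1), by group; circles are the 10 lower-depth libraries, open red diamonds the 2 deep libraries, and bars the mean of the circles. In P815-M tumors Srxn1, Prdx1 and Txnrd1 lay higher, and Mt1 and Mt2 lower, in every light library than in every dark library, and the deep libraries stood far above the circles for Mt1, Mt2 and Prdx1.

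No member passed the test in the comparison of light with dark, in either tumor line. Calls needed an adjusted p no higher than 0.05 together with a log2 fold change of 1 or more in size (edgeR quasi-likelihood test over all genes, 12 libraries). The spread of each gene in that fit is shared by all groups and includes the difference between the depth classes within P815-IFNG. In P815-IFNG tumors 0 of 10 members were called, where 0% of all 18804 genes were, and in P815-M tumors 0 of 10, again with 0% of all genes. Over both lines together the count was 0 of 10 and the background 0%. At an unadjusted p under 0.05 the counts of members were also 0 in all of these comparisons, against 2.18% of all genes in P815-IFNG, 2.71% in P815-M and 3.54% over both lines. The smallest adjusted p of any member was 1 in each. Apart from Nqo1, whose counts were too low for a fold change, 4 of 9 members had a higher mean in light in P815-IFNG, with a median log2 fold change of -0.08 (all genes: -0.02). In P815-M 7 of 9 were higher in light, with a median of 0.21 (all genes: 0.01).

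In the 10 libraries without the deep ones, fitted alone, again 0 members were called. That fit called 0.927% of 16944 genes in P815-M and 0.0059% in P815-IFNG. At an unadjusted p under 0.05 it held 4 of the 10 members in P815-M, where 14% of all genes passed, and 0 in P815-IFNG, where 10.7% did. These 4 were Srxn1 and Prdx1, higher in light, and Mt1 and Mt2, lower in light. The smallest adjusted p was 0.112, for Mt2 in P815-M.

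**Figure D2:**
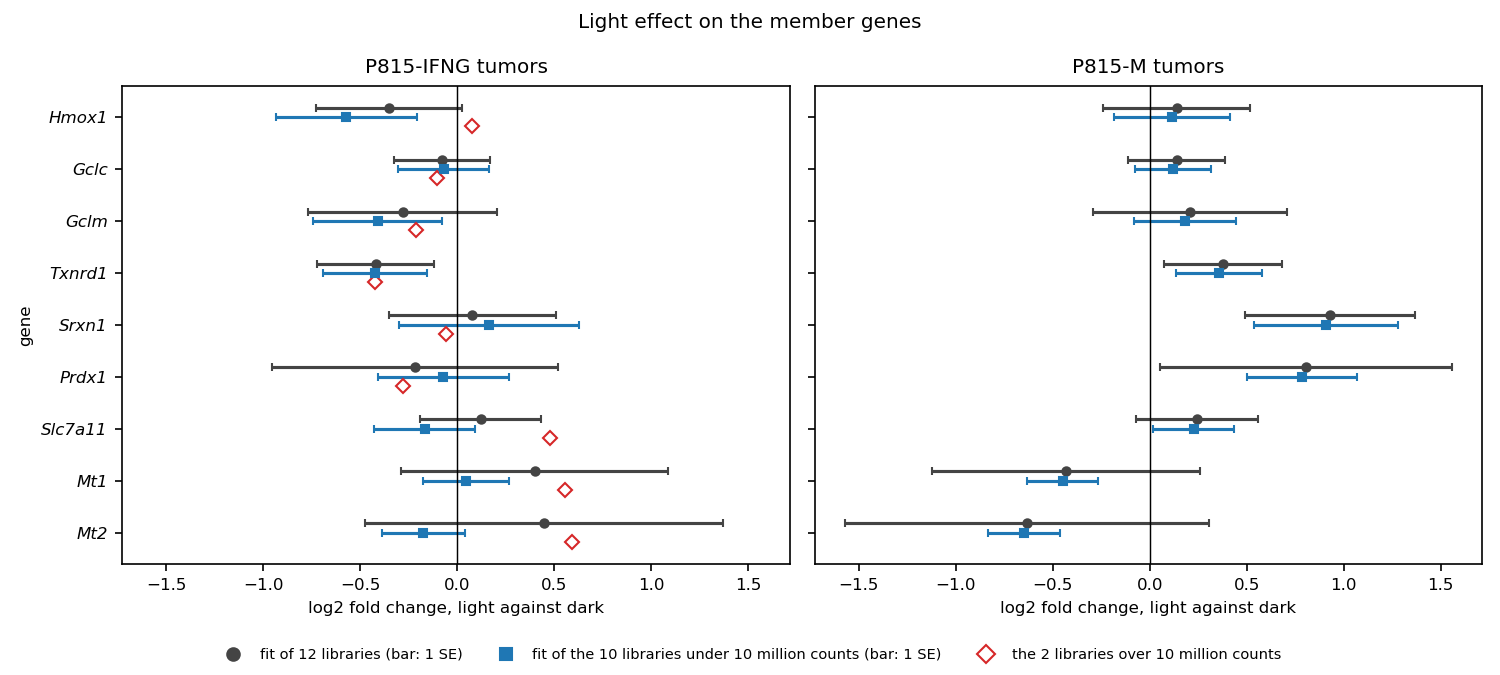
Log2 fold change of light against dark for 9 members (Nqo1 is left out for its low counts) in P815-IFNG and P815-M tumors, from the fit of 12 libraries (grey circles, bar 1 SE) and of the 10 lower-depth libraries (blue squares, bar 1 SE), with the ratio of the 2 deep libraries as red diamonds. In P815-M the estimates of Srxn1 (0.93) and Prdx1 (0.81) lay right of 0 and those of Mt1 (-0.43) and Mt2 (-0.63) left of it; in P815-IFNG the diamonds of Mt1 and Mt2 lay right of the squares.

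Heme oxygenase 1 (Hmox1), the inducible enzyme that degrades heme and a usual first marker of oxidative stress, did not separate light from dark. The gene lies at chr8:75093621-75100589 (GRCm38, plus strand). Its level was 59.1, 42.5 and 62.3 CPM in the P815-IFNG light libraries and 50.0, 100.5 and 59.0 CPM in the dark ones, with the deep library last in each group. In P815-M tumors it was at 55.0, 69.4 and 68.0 CPM in light and at 72.2, 30.7 and 71.6 CPM in the dark. The lowest and the highest of these values were both dark libraries, and the groups overlapped in both lines. The log2 fold change was -0.35 ± 0.38 (SE) in P815-IFNG and 0.14 ± 0.38 in P815-M, with 95% intervals that allowed light to dark ratios of 0.443 to 1.39 and of 0.62 to 1.95. Between the deep libraries the log2 ratio was 0.08, with a counting interval of -0.00 to 0.15.

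Nqo1, which reduces quinones with NADPH, was at the edge of detection in these libraries. It had 0 to 3 counts in each of the 10 lower-depth libraries, and 15 counts (light) and 9 counts (dark) in the deep ones, that is 0.347 and 0.201 CPM. No fitted fold change is given for Nqo1, since all lower-depth libraries were at or under the floor of 3 counts, and in the deep libraries the log2 ratio was 0.79 with a counting interval of -0.50 to 2.16. Gclc and Gclm encode the catalytic and the modifier subunit of the enzyme that limits glutathione synthesis. Gclc lay between 36.9 and 59.3 CPM in all 12 libraries, the narrowest spread of the members, and both of these extremes were P815-IFNG dark libraries. Its log2 fold change was -0.08 ± 0.25 in P815-IFNG and 0.14 ± 0.25 in P815-M. Gclm lay between 12.5 and 26.7 CPM in the lower-depth libraries and was at 40.0 CPM in the deep light and 46.4 CPM in the deep dark library. Its log2 fold change was -0.28 ± 0.49 and 0.21 ± 0.50 in the same order. Gclm shares 296 of its 6291 exon bases with Gm17494 of the other strand, so its counts are less certain than those of Gclc.

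Sulfiredoxin (Srxn1), which repairs overoxidized peroxiredoxins, had a higher CPM in each lit than in each dark P815-M library. The gene lies at chr2:152105516-152111376 (GRCm38, plus strand). Its level was 22.3, 21.1 and 36.2 CPM in light and 13.3, 10.4 and 18.1 CPM in the dark. The log2 fold change was 0.93 ± 0.44, with a 95% interval of the ratio from 0.976 to 3.70 and an unadjusted p of 0.0574 in the edgeR quasi-likelihood test. In P815-IFNG tumors Srxn1 was at 19.7, 7.8 and 14.0 CPM in light and at 17.1, 7.7 and 14.6 CPM in the dark, and the groups overlapped. The log2 fold change there was 0.08 ± 0.43.

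Peroxiredoxin 1 (Prdx1), an abundant peroxidase that reduces hydrogen peroxide, followed the same order in P815-M tumors, at 56.1, 67.5 and 93.9 CPM in light against 42.5, 29.2 and 52.7 CPM in the dark. The fitted log2 difference was 0.81 ± 0.75. Levels in P815-IFNG tumors were 73.6, 35.6 and 241 CPM in light and 67.3, 47.9 and 293 CPM in the dark, and the deep libraries, last in each group, were the high ones. Thioredoxin reductase 1 (Txnrd1), which reduces thioredoxin, was at 55.5, 48.4 and 57.7 CPM in lit and at 46.8, 31.8 and 45.7 CPM in dark P815-M tumors, again without overlap. In P815-IFNG the order of the means was the other way round, at 53.5, 31.7 and 57.7 CPM in light and 65.2, 49.3 and 77.4 CPM in the dark, and the groups overlapped. The log2 fold change of Txnrd1 was 0.38 ± 0.30 in P815-M and -0.42 ± 0.30 in P815-IFNG. P815-IFNG libraries of the same replicate number deviated together from their group means. The third library of both groups is the deep one, so pairing by number and depth class cannot be told apart here. Whether the numbers pair the mice was not tested. Within the 3 same-numbered pairs Txnrd1 was lower in light in each, by -0.28, -0.63 and -0.42 on the log2 scale. Gclm was also lower in light in 3 of 3 pairs, as were 16.6% of all genes, while no other member was, and 12.2% of all genes were higher in 3 of 3. With the replicate number as a block Txnrd1 had -0.44 ± 0.23 (unadjusted p = 0.0839, adjusted p = 1, edgeR), and an exact test over 3 pairs cannot go below 0.25. Slc7a11, the cystine-glutamate antiporter, overlapped in both lines, with 26.1 to 50.7 CPM in light and 27.3 to 38.3 CPM in the dark. Its log2 fold change was 0.12 ± 0.31 in P815-IFNG and 0.24 ± 0.31 in P815-M, and the log2 ratio of the deep libraries was 0.48.

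Light libraries of P815-M tumors thus did not overlap with the dark ones for 3 members that were higher in light (Txnrd1, Srxn1 and Prdx1) and 2 that were lower (Mt1 and Mt2). Of all 18804 genes, 10.1% did not overlap with light higher and 8.06% with light lower. In P815-IFNG tumors the count was 0 of 10 in either direction, where 0.994% of all genes did not overlap with light higher and 2.75% with light lower. With 3 libraries against 3, the exact permutation test cannot go below 0.1 (two-sided), which is the value each of these 5 members had in P815-M.

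The rows of both metallothioneins were lower in each lit than in each dark P815-M library. These libraries are all of the lower-depth class. In that class the counts of annotated opposite-strand pairs lay mostly on the strand opposite to the coding gene. The values may therefore rest on a minor part of the transcript reads. For Mt2, the row of the gene on the opposite strand overlapped between light and dark, as given below. Mt1 was at 143, 129 and 120.3 CPM in light and at 171, 174.5 and 184 CPM in the dark. Mt2 was at 32.2, 39.7 and 41.1 CPM in light and at 58.2, 50.0 and 67.1 CPM in the dark. The log2 fold change was -0.43 ± 0.69 for Mt1 and -0.63 ± 0.94 for Mt2 in the fit of 12 libraries. Without the deep libraries the values were -0.45 ± 0.18 and -0.65 ± 0.18, with adjusted p-values of 0.280 and 0.112 (edgeR).

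Several other rows and sums of the P815-M tumors also differed between light and dark, some lower and some higher in light. The reporter mRuby3_luciferase, which only the injected tumor cells carry, was at 54.0, 40.7 and 41.6 CPM in light and at 72.6, 67.2 and 75.7 CPM in the dark. Its log2 fold change without the deep libraries was -0.68 ± 0.25, with an adjusted p of 0.217 in edgeR. The mast cell markers Kit (371, 440.0 and 408 CPM in light; 585.5, 448.5 and 530.0 CPM in the dark) and Cpa3 (676, 784 and 779.5 CPM in light; 1100, 831 and 948 CPM in the dark) also did not overlap. They were the 2 of 10 tested mast cell markers without overlap, where 8.06% of all genes did not overlap with light lower. Of the other markers 4 had a higher mean in light, among them Hdc (1.52 ± 1.03 on the log2 scale) at a mean of 1.99 CPM, and 4 a lower one. The mast cell markers summed to 2413 to 2521 CPM in light and to 2597 to 3496 CPM in the dark. The macrophage markers summed to 1881 to 2233 CPM in light and to 1172 to 1288 CPM in the dark. Of these 12 markers, 12 had a higher mean in light, 3 had an unadjusted p under 0.05 (2.71% of all genes in either direction), and 0 were called. Among them Adgre1, which defines mouse macrophages, was at 138 to 156 CPM in light and at 116 to 180.2 CPM in the dark, and Csf1r at 255 to 348 CPM against 224 to 277 CPM. The share of mt-Nd6 among mitochondrial protein-coding counts was 47.9%, 43.7% and 41.5% in light and 29.0%, 36.7% and 31.5% in the dark, and in the lower-depth P815-IFNG libraries 40.5% and 43.6% in light and 34.4% and 32.2% in the dark. The mt-Nd6 share is also the strand measure used above. Over the 247 opposite-strand pairs, the median share of counts in the opposite row was 86.4%, 86% and 83.3% in lit P815-M libraries. It was 79.5%, 85.3% and 80.7% in the dark ones, and light and dark overlapped. In the lower-depth P815-IFNG libraries it was 79.2% and 82.8% in light and 76.2% and 76.5% in the dark. Light and strand mix thus cannot be fully told apart in these libraries. In a whole tumor, fewer cells of a type and less RNA per cell cannot be told apart. The part of these rows and of the strand mix in the member values was not tested.

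In P815-IFNG tumors the values of both metallothioneins went with the depth class. Mt1 was at 162.5 and 218 CPM in the lower-depth light libraries, at 145 and 219.5 CPM in the lower-depth dark libraries, and at 976.5 CPM (light) and 665 CPM (dark) in the deep ones. For Mt2 the lower-depth libraries held 57.1 and 64.4 CPM in light and 61.4 and 74.7 CPM in the dark, and the deep ones 662 CPM and 439 CPM. Light and dark overlapped for both genes. The log2 fold change was 0.40 ± 0.69 for Mt1 and 0.45 ± 0.92 for Mt2 with 12 libraries, but 0.05 ± 0.22 and -0.18 ± 0.22 without the deep ones. The deep light library was above the deep dark library by 0.55 for Mt1 and 0.59 for Mt2 on the log2 scale, with counting intervals of 0.53 to 0.58 and 0.56 to 0.62 that cover counting error only and hold for these 2 libraries, not for the condition.

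**Figure D3:**
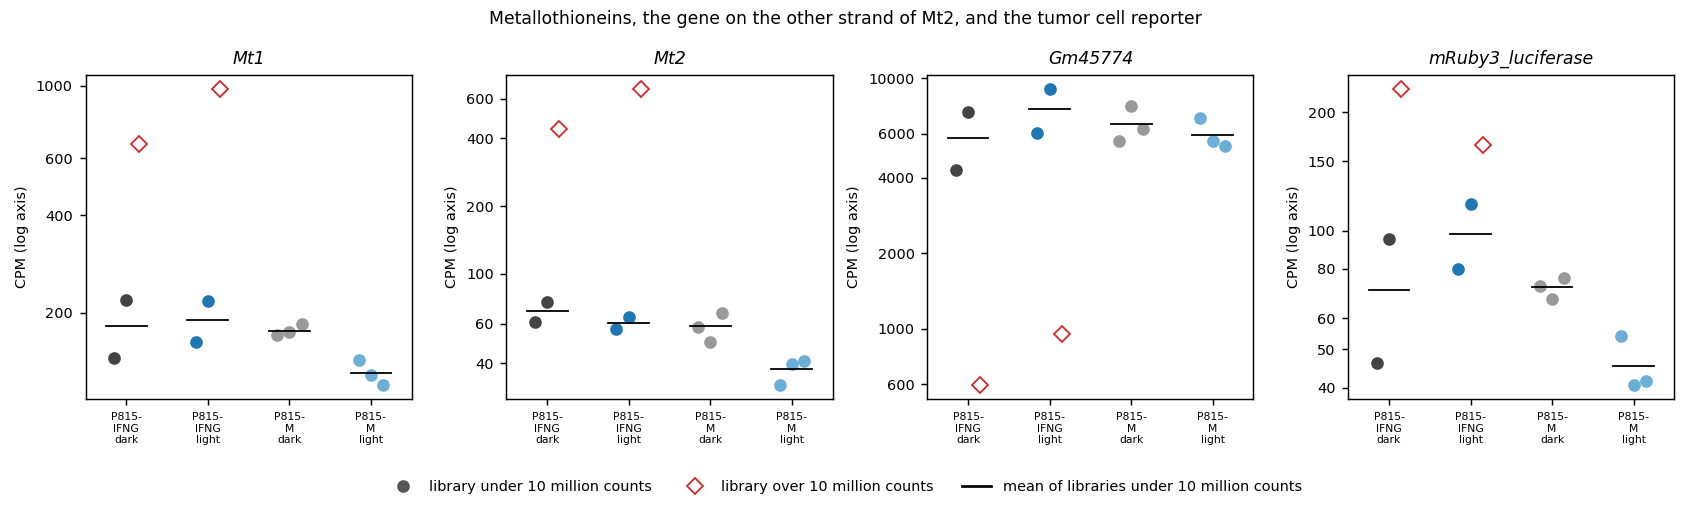
CPM (log axis) of Mt1, Mt2, Gm45774 (the gene on the other strand of Mt2) and the reporter mRuby3_luciferase in the 12 libraries by group; circles are the 10 lower-depth libraries, open red diamonds the 2 deep ones, bars the mean of the circles. The diamonds lie above the circles for Mt1 and Mt2 and below them for Gm45774, and lit P815-M libraries lie below dark ones for Mt1, Mt2 and the reporter but not for Gm45774.

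Counts on the opposite strand of Mt2 behaved differently from those of Mt2. The annotated antisense gene Gm45774 (GRCm38, chr8:94170748-94173412, minus strand) covers 432 of the 588 exon bases of Mt2 (chr8:94172664-94173568, plus strand). It was at 4293 to 9020 CPM in the 10 lower-depth libraries and at 953 CPM (light) and 599 CPM (dark) in the deep ones, the reverse of Mt2, which was 8.55-fold higher in the deep than in the lower-depth P815-IFNG libraries. In P815-M tumors Gm45774 was at 6912, 5607 and 5337 CPM in light and at 5614, 7750 and 6248 CPM in the dark. These libraries overlapped, and the log2 fold change was -0.14 ± 1.00 with 12 libraries and -0.15 ± 0.23 without the deep ones. The row of Mt2 was thus lower in each lit than in each dark P815-M library, while that of the gene on the opposite strand overlapped between them. Gm45774 is no member and was chosen with its values known.

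Values of other members also differed between the depth classes within P815-IFNG, which differ in strand too. Prdx1 was 4.76-fold, Mt1 4.41-fold and Gclm 2.53-fold higher in the deep than in the lower-depth libraries, compared as means of 2 and 4 libraries. Slc7a11 (1.49-fold), Txnrd1 (1.35-fold), Gclc and Srxn1 (1.09-fold each) and Hmox1 (0.963-fold) were closer to each other. Over the 10408 genes with a mean of at least 10 CPM the median log2 difference, lower-depth minus deep, was -0.34. The count ratio of Mt2 to Mt1 was 0.225 to 0.423 in the lower-depth libraries, and 0.678 and 0.661 in the deep ones.

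When light and dark were exchanged only among libraries of the same line and depth class, none of the 9 members other than Nqo1 reached an exact two-sided permutation p of 0.05 over the 12 libraries. Of 240 arrangements the smallest possible p was 0.00833. The lowest values were 0.175 for Srxn1, with a light minus dark difference of 0.48 in mean log2 CPM, and 0.175 for Mt2, with -0.27. Hmox1 had a difference of -0.04 (exact permutation p = 0.858), Prdx1 of 0.31 (p = 0.3) and Mt1 of -0.10 (p = 0.6). Without the deep libraries Mt2 had a difference of -0.44 and an exact permutation p of 0.0333, of 120 arrangements with a smallest p of 0.0167; its p is unadjusted, 1 of 9 in the same family.

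No member passed the test of a different light effect in the 2 lines. The test of the difference (P815-IFNG minus P815-M) called 0 of 10 members, with 0% of all genes called, and 0 members had an unadjusted p under 0.05, against 1.66% of all genes. The smallest adjusted p of any member was 1. Of the 9 members other than Nqo1, 7 had means that moved in opposite directions in the lines. The differences largest in size among the 9, on the log2 scale, were 1.08 ± 1.32 for Mt2, -1.02 ± 1.05 for Prdx1, -0.85 ± 0.61 for Srxn1, 0.83 ± 0.98 for Mt1 and -0.80 ± 0.43 for Txnrd1. Srxn1 had a higher mean in light in both lines. Without the deep libraries 0 members were called, with 0.0118% of all genes, and 1 had an unadjusted p under 0.05, against 7.7% of all genes. It was Txnrd1, at -0.78 ± 0.35 (unadjusted p = 0.0404, adjusted p = 0.642, edgeR).

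P815-IFNG and P815-M tumors differed in several members by size but not by the test. In light 0 of 10 members were called, with 0.016% of all genes, and in the dark 0 of 10, with 0.0106%. Over all genes, the median of P815-IFNG against P815-M on the log2 scale was itself 0.15 in light and 0.33 in the dark. Mt1 and Mt2 had the largest member values in light, 1.79 ± 0.71 and 2.80 ± 0.99, and in the dark Prdx1 had 1.72 ± 0.76 and Mt2 1.72 ± 0.95. At an unadjusted p under 0.05 these comparisons held 2 members in light (6.79% of all genes) and 1 in the dark (6.86%). The deep libraries are both P815-IFNG. Without them Mt1 was at 0.54 ± 0.20 and Mt2 at 0.69 ± 0.20 in light, and Prdx1 at 0.46 ± 0.31 and Mt2 at 0.22 ± 0.20 in the dark.

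By overlap, lit P815-IFNG libraries were all above lit P815-M libraries for Mt1 and Mt2, where 9.23% of all genes did so, and all below for Srxn1, where 7.71% did. In the dark Txnrd1 was above in every P815-IFNG library, with 10.9% of all genes above and 10.3% below. Mt1 in light was at 162.5 to 976.5 CPM in P815-IFNG against 120.3 to 143 CPM in P815-M, and Mt2 at 57.1 to 662 CPM against 32.2 to 41.1 CPM. In the 10 libraries the calls were again 0 of 10, with 0.23% of all genes called in light and 2.19% in the dark. There 5 members had an unadjusted p under 0.05 in light, Mt1 and Mt2 higher and Gclm, Srxn1 and Slc7a11 lower in P815-IFNG (10.3% of all genes), and 0 in the dark (19.5%).

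Mt1 was the member whose level went most closely with the tumor cell reporter over the 10 lower-depth libraries. Among 10020 genes with a mean of at least 10 CPM, ranked by Pearson's r of log2 CPM with Mt1, mRuby3_luciferase had the highest r (0.950, n = 10; Spearman's rho 0.879), ahead of Fam102a (0.922) and Ppp1cc (0.920). Without the 2 libraries farthest from the median of the reporter r was 0.913, and in the 6 P815-M libraries alone it was 0.977. Between the deep libraries the order was the opposite one, with the reporter at 165 CPM in light and 228 CPM in the dark (log2 ratio -0.47) and Mt1 higher in light. Mt2 had an r of 0.695 with the reporter, and Srxn1 of -0.793. For Hmox1 the 3 genes with the highest r were Sh3pxd2b (0.909), Gab2 (0.893) and Tspan3 (0.887), and its r with the reporter was -0.03. These values describe 10 libraries that share the 4 groups and their depth class, and since the first genes were picked as the highest of many, no p is given. The strand mix also varied over these 10 libraries, with an mt-Nd6 share of 29.0% to 47.9%. Rows of Mt1 and of the reporter may rest on a minor part of their transcript reads. The part of the strand mix in these correlations was not tested.

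**Figure D4:**
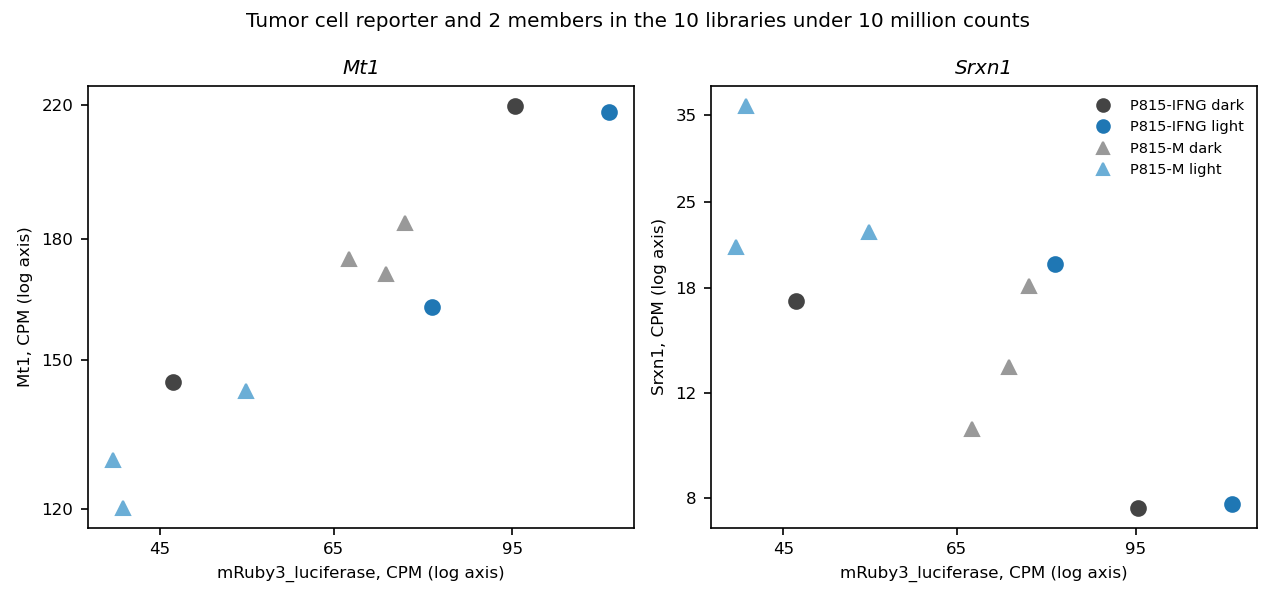
Level of Mt1 and of Srxn1 against that of the reporter mRuby3_luciferase in the 10 lower-depth libraries (CPM, both axes log; circles P815-IFNG, triangles P815-M). Mt1 is higher where the reporter is higher (r = 0.950) and Srxn1 is lower (r = -0.793), and the 3 lit P815-M libraries lie at the low end of the reporter together with 1 dark P815-IFNG library.

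Correlations between the members over the same 10 libraries were mostly moderate. Txnrd1, Srxn1 and Prdx1 had r of 0.662 to 0.848 between them, Mt1 and Mt2 0.774, and Gclm and Slc7a11 0.651. Mt1 had r of -0.902 with Srxn1, -0.717 with Prdx1 and -0.60 with Txnrd1, whereas Mt2 had -0.659, -0.331 and -0.228 in the same order. Hmox1 and Gclc had r of at most 0.529 in size with any member, and Hmox1 and Mt1 had an r of -0.00.

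Regulators of NRF2 had medians near 0 in both lines. Of 9 regulators, 0 were called in either line, 5 had a higher mean in light in P815-IFNG (median log2 fold change 0.02) and 5 in P815-M (median 0.00), and 0 did not overlap. Of all genes, 10.1% did not overlap with light higher and 8.06% with light lower in P815-M. In P815-IFNG these shares were 0.994% and 2.75%. Nfe2l2, which encodes NRF2 itself, had 0.03 ± 0.43 in P815-IFNG and 0.20 ± 0.44 in P815-M, and Keap1, its inhibitor, 0.39 ± 0.35 and -0.00 ± 0.35; both genes lie outside the rule for named genes and were chosen with their values known.

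The other lists had 0 called genes in the comparison of light with dark in either line. Of 21 further NRF2 targets tested, 15 had a higher mean in light in P815-M (median 0.25) and 8 in P815-IFNG (median -0.12). In P815-M 2 of these targets did not overlap with light higher (10.1% of all genes) and 1 with light lower (8.06% of all genes). At an unadjusted p under 0.05 there were 1 higher and 1 lower, against 2.71% of all genes. G6pdx, the entry enzyme of the NADPH-making pentose phosphate pathway, had 0.59 ± 0.34 in P815-M, and Gstp1, a glutathione transferase, had -0.58 ± 0.26. The largest change there was that of Mgst1, at 2.77 ± 0.65 (unadjusted p = 0.00128, edgeR). Its mean of 5.24 CPM lies under the limit for named genes, and it was chosen with its values known. In P815-IFNG Taldo1, of the same pathway as G6pdx, had -0.36 ± 0.24. Of 23 general antioxidant enzymes 13 were higher in light in P815-M (median 0.14) and 12 in P815-IFNG (median 0.02), and in P815-M 7 did not overlap with light higher (10.1% of all genes) and 2 with light lower (8.06% of all genes). Among these were Msrb1, which repairs oxidized methionine, with 0.59 ± 0.32, and Sod3, the extracellular superoxide dismutase, with 0.57 ± 0.42. In P815-IFNG Glrx5, a mitochondrial glutaredoxin, had -0.40 ± 0.23.

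Metal response genes other than Mt1 and Mt2 had medians below 0 in both lines. Of 9 tested, 3 were higher in light in P815-M (median -0.15) and 2 in P815-IFNG (median -0.15), and the zinc importer Slc39a10 had -0.55 ± 0.50 in P815-M. Of 14 genes of the ATF4 stress response, which answers amino acid shortage and unfolded proteins, 3 were higher in light in P815-M (median -0.43) and 5 in P815-IFNG (median -0.27). In P815-M 5 of the 14 did not overlap, all lower in light, against 8.06% of all genes, among them Ddit4, an inhibitor of mTORC1, with -0.78 ± 0.44, and Asns, asparagine synthetase, with -0.63 ± 0.75. Atf3, an early stress factor, was higher in each lit than in each dark P815-IFNG library, as were 0.994% of all genes, with 0.82 ± 0.53 and a log2 ratio of 0.87 between the deep libraries. The adjusted p of each gene named from these lists was 1 in edgeR.

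**Figure D5:**
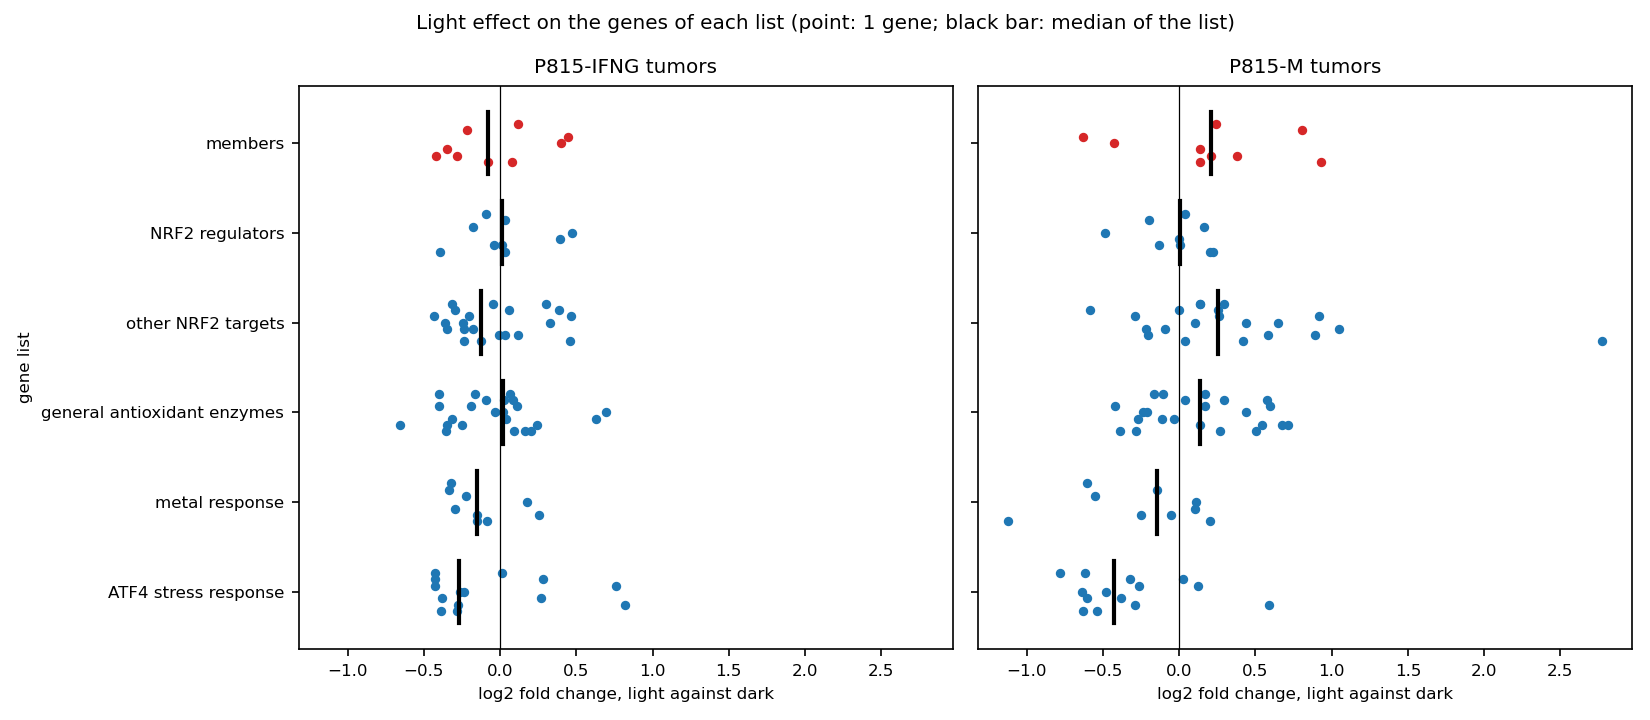
Log2 fold change of light against dark (12 libraries) for each tested gene of 6 lists in P815-IFNG and P815-M tumors, 1 point per gene and a black bar at the median of each list; the members without Nqo1 are in red. The points of each list lie on both sides of 0 in both lines, with medians in P815-M from -0.43 for the ATF4 stress response to 0.25 for the other NRF2 targets.

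Markers of the other cell types differed between groups without a call. Skeletal muscle markers summed to 128 to 184 CPM in lit and 157 to 599.5 CPM in dark P815-IFNG tumors, and to 118 to 482.5 and 102 to 681 CPM in P815-M. In P815-IFNG 6 of 10 muscle markers were lower in light at an unadjusted p under 0.05 (2.18% of all genes in either direction) and 5 did not overlap (2.75% with light lower), with 0 called. Fibroblast markers summed to 4766 to 7678 CPM in lit and 5452 to 15550 CPM in dark P815-IFNG tumors, and endothelial markers to 40.0 to 105 and 52.0 to 201 CPM; in P815-M the sums were 6323 to 7847 and 5927 to 6668 CPM for fibroblasts and 75.7 to 114 and 58.4 to 164 CPM for endothelium. In P815-IFNG 3 of 8 endothelial markers were lower in light at an unadjusted p under 0.05 and 4 did not overlap, and of 8 fibroblast markers 1 was lower at that p and 1 did not overlap, with 0 called. Red blood cell, T cell, neutrophil, and adipocyte and skin markers summed to at most 27.5, 43.4, 207 and 262 CPM in any library. The part of these cells in the member values was not tested.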

How the data were processed

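RNA-seq libraries of 12 tumors, each from a mouse with 1 tumor, were used; samples were grouped by their labels. The authors deposited unnormalized counts of reads for each gene symbol, made with STAR 2.7.9a and HTSeq 0.13.5 with default parameters; mm10 plus the knock-in sequences was the reference, and its annotation release is not given in the sources used here. After removal of 13 mitochondrial rows, the 18804 genes that reached 10 counts in total were tested with R 4.3.3 and edgeR 4.0.16 (TMM, 1 mean per group over 12 libraries, quasi-likelihood test, Benjamini-Hochberg over all genes). P-values of the fits measure the spread between libraries of a group, each from its own mouse. In the fit of 12 libraries this spread includes the difference between the depth classes within P815-IFNG. For Mt2 in P815-M light against dark, the SE was 0.94 in that fit and 0.18 without the deep libraries. Of 38 duplicated symbols the row with more counts was used for the list gene Ddit3. Log2 CPM used a prior count of 2. For single members, exact permutation tests (two-sided) were also run.

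The members and lists were chosen with earlier results of these data known, from general knowledge of the pathways. Named are all members; of each pathway list, called genes and, per line, the 2 non-overlapping genes of at least 10 CPM with the largest change; the 3 genes most correlated with Mt1 and with Hmox1; and defining markers of the marker lists, of which those with values were chosen with their values known. Lists covered NRF2 regulators, other NRF2 targets, antioxidant enzymes, metal response and ATF4 stress response, and markers of macrophages, red blood cells, mast cells, skeletal muscle, fibroblasts, neutrophils, T cells, endothelium, and adipocytes and skin. The 2 libraries with over 10000000 counts were shown apart.

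Alternatives were DESeq2 1.42.0, its size factors, filterByExpr, no filter, the replicate number as a block, the deep libraries left out or set as a batch, ComBat-seq of sva 3.50.0, and each library left out. In P815-IFNG light against dark, libraries with the same replicate number in the labels had correlated deviations from their group means. The correlations across 10408 genes were 0.869, 0.855 and 0.966, the last between the deep libraries. Since the deep library is number 3 in both groups, pairing and depth class cannot be told apart there. The block changed no member's call. The code was tested on simulated data. Pairs of genes on opposite strands were compared by their counts in each library. Coordinates and opposite-strand overlaps came from GENCODE M21 (GRCm38), promoters from RefSeq; figures were drawn with matplotlib 3.10.9. The counting intervals between the deep libraries and the floor of 3 counts cover counting error only. The 95% intervals of ratios come from the edgeR fit and include the spread between libraries.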

Additional observations from a re-analysis of the deposited data

How the results depend on the processing

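No member was called under any alternative, and of 864 log2 fold changes of the 9 members other than Nqo1 795 kept their direction and 69 did not. Nqo1 was left out, being at or under 3 counts in 10 of 12 libraries. The counts of called genes over the whole table moved more. With DESeq2 they were 4 (effect of light in P815-IFNG), 1 (effect of light in P815-M), 6 (both lines), 41 (lines in light), 38 (lines in the dark) and 4 (difference between the lines). Without the 2 deep libraries they were 1, 157, 77, 39, 371 and 2, with depth class as a batch term 2, 194, 149, 82, 290 and 3, and with ComBat-seq by depth class 157, 257, 287, 262, 570 and 40, in the same order. For the lines in the dark, DESeq2 size factors and filterByExpr gave 4 each, and the replicate block 7. With each library left out in turn, the counts were 1 to 4 for the lines in light (1 without each of the 3 lit P815-M libraries) and 1 to 2 for the lines in the dark. The replicate block changed no member's call, and without the block the calls were 0 as well; in P815-M light against dark the numbers did not pair the libraries (r of -0.34 to 0.017 across genes).

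Sign changes of the log2 fold change were as follows. Without the deep libraries Slc7a11 was at -0.17 and Mt2 at -0.18 in P815-IFNG light against dark, Prdx1 at -0.40 for the lines in light, and Gclm at -0.12 for the lines in the dark. A batch term gave -0.44 for Prdx1 in light and -0.16 (Gclm) and -0.036 (Mt1) in the dark, and ComBat-seq -0.41 for Prdx1 in light and -0.17 for Gclm in the dark. Over both lines, DESeq2 gave 0.0044 for Txnrd1 and for Mt1, its size factors 0.0033 and 0.0044, and filterByExpr 0.0021 for Mt1. In the dark, Gclc was at -0.030 with DESeq2 and -0.027 with its size factors. With each library left out in turn, log2 fold changes that changed sign ranged, for P815-IFNG light against dark, Hmox1 -0.55 to 0.0057, Gclc -0.25 to 0.091, Gclm -0.90 to 0.21, Srxn1 -0.28 to 0.35, Prdx1 -1.23 to 0.94, Slc7a11 -0.20 to 0.26, Mt1 -0.78 to 1.21, Mt2 -1.57 to 1.83. For P815-M light against dark these ranges were Hmox1 -0.16 to 0.32, Gclm -0.036 to 0.42. For light against dark over both lines these ranges were Hmox1 -0.26 to 0.073, Gclc -0.056 to 0.10, Gclm -0.36 to 0.19, Txnrd1 -0.10 to 0.088, Prdx1 -0.22 to 0.86, Mt1 -0.62 to 0.38, Mt2 -1.11 to 0.59. For P815-IFNG against P815-M in light these ranges were Gclm -0.70 to 0.19, Txnrd1 -0.32 to 0.047, Prdx1 -0.38 to 1.12. For P815-IFNG against P815-M in the dark these ranges were Hmox1 -0.10 to 0.45, Gclc -0.083 to 0.31, Gclm -0.11 to 0.70, Srxn1 -0.39 to 0.18, Slc7a11 -0.13 to 0.041. For the difference between the lines these ranges were Gclm -1.08 to 0.028, Prdx1 -2.00 to 0.16, Slc7a11 -0.42 to 0.050, Mt1 -0.32 to 1.67, Mt2 -0.91 to 2.49. Of the exact permutation tests, Mt2 without the deep libraries had -0.44 (exact permutation p = 0.0333), Gclm 0.0029 and Txnrd1 0.053, and by library total Gclc was at -0.026. The causes were not tested. At 2211234 to 2946792 counts the 10 lower-depth libraries could not resolve Nqo1. Depth class, strand and tumor line cannot be fully told apart, since both deep libraries are P815-IFNG.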
